A study of Homo sapiens with 19 samples.

Results

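The collagen genes outside type IV were followed through single-cell RNA sequencing of human liver organoids. Members were the genes whose symbol in the feature list of the first OA library had the form COL, a number, A and a number. The 6 type IV genes, which form the sheet of basement membranes, were left out. This gave 38 of 36601 listed genes, and all 38 were found by Ensembl identifier in the files of every library. By type they were 11 fibrillar, 6 beaded-filament and von Willebrand A, 10 fibril-associated, 4 transmembrane and 3 network collagens, 2 multiplexins, the anchoring-fibril collagen COL7A1, and COL26A1. COL10A1 (29 UMIs in the 19 libraries) and COL20A1 (26 UMIs) were too low to test, and in the ULA cultures COL5A3 and COL6A5 were too, which left 36 members tested in the OS cultures and 34 in the ULA cultures. A UMI is a molecular tag that counts 1 captured RNA molecule.

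All organoids came from W01, a single wild-type human pluripotent stem cell line. ULA organoids (ultra-low attachment plates) received no treatment, and 3 libraries were made on day 21 and 2 on day 34. OS organoids (orbital shaking) were taken on day 25, with 2 libraries for each of 7 groups: TGFB1 at 10 ng/ml, PA at 500 µM, OA at 500 µM, a control named for each of them, and organoids without treatment. PA and OA are abbreviations that the labels leave unexplained, and the contents of the control media are not given. TGFB1 and PA were applied for 5 days after 20 days of culture; the protocol text does not mention OA. Day 34 ULA and OS organoids had a wash and 10 minutes of trypsin more than those of day 21. Nothing in the labels says that replicates were separate cultures, so the p-values measure only the spread between these libraries, which may be technical.

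Collagens are proteins of wound chains that form a triple helix. Fibrillar collagens such as types I, III and V assemble into the banded fibres of scar and connective tissue, fibril-associated collagens bind to the surface of these fibres, and the chains of types VII and XVII help to fasten epithelial cells to the matrix beneath them. In liver, stellate cells and fibroblasts are the main source of fibrillar collagen, and TGFB1 is a known inducer of it. Before secretion, collagen chains are hydroxylated and folded with a dedicated chaperone; their ends are trimmed by proteases and the fibres are crosslinked outside the cell.

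Of 138053 barcodes, 120240 were kept as cells (3089 to 12427 per library), with 6880807 to 91184130 UMIs per library. Levels are counts per 1000000 UMIs of the library or cell class (CPM). The assay counts 3′ ends and the counts were not divided by gene length, so a level is compared between samples and not between genes. Pairs of libraries shared 1 to 32 cell barcodes, at most 0.581% of the smaller library. Cells were also divided by EPCAM, an epithelial surface protein: a cell with at least 1 EPCAM UMI was called EPCAM-positive. EPCAM itself had 1930 and 1729 CPM with OA against 657 and 561 CPM in OA controls. It had 1301 and 1062 CPM with TGFB1 against 499 and 822 CPM, and with PA it overlapped the controls. At ULA day 34 it had 180 and 298 CPM against 569, 416 and 510 CPM at day 21. So the gate gene moved with these conditions, and its part in the results by class was not tested. In the OS libraries the 7 epithelial markers summed to 3618 to 8687 CPM in EPCAM-positive and 1036 to 4267 CPM in EPCAM-negative cells, and the 9 mesenchymal markers to 23.997 to 436 CPM and 173 to 2592 CPM, so neither class was pure. In TGFB1 control replicate 1 the split hardly separated epithelial cells: there the epithelial markers summed to 3618 CPM in EPCAM-positive and 3459 CPM in EPCAM-negative cells, against 6127 and 2089 CPM in replicate 2. The sums were also close in PA control replicate 1 (4693 and 3512 CPM) and PA replicate 1 (5393 and 4267 CPM). The TGFB1 results by class rest on this control and are also given without it. EPCAM-negative cells had the lower median UMI count in 19 of 19 libraries.

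The summed level of the family differed widely between groups. It was 1717, 2157 and 1695 CPM in the 3 day 21 ULA libraries and 4755 and 2157 CPM in the day 34 libraries. In OS organoids it was 1567 and 1312 CPM in TGFB1 controls, 2578 and 3025 CPM with TGFB1, 1162 and 1459.7 CPM in PA controls and 1016 and 1137 CPM with PA. It was 6617 and 3388 CPM in untreated organoids, 3083 and 4934 CPM in OA controls and 328 and 317 CPM with OA. The OA libraries were the lowest of the 19, and the untreated and OA control libraries were above every TGFB1 and PA library. The member with the most UMIs also differed. It was COL3A1, a fibrillar collagen of soft tissue, followed by COL1A2 in both ULA groups. It was COL18A1, a multiplexin of basement membranes, in the TGFB1 control, PA control and PA groups, COL1A1 with TGFB1, COL3A1 in the untreated and OA control groups, and COL6A1 with OA. COL18A1 had 282 and 219 CPM in TGFB1 controls and 57.2 and 85.8 CPM in OA controls, whereas COL1A1, the main chain of type I collagen, had 234 and 217 CPM and 709 and 1255 CPM. Headers of the OA control matrices name another software version than those of the TGFB1 controls, so processing and level cannot be told apart between these control groups.

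**Figure D1:**
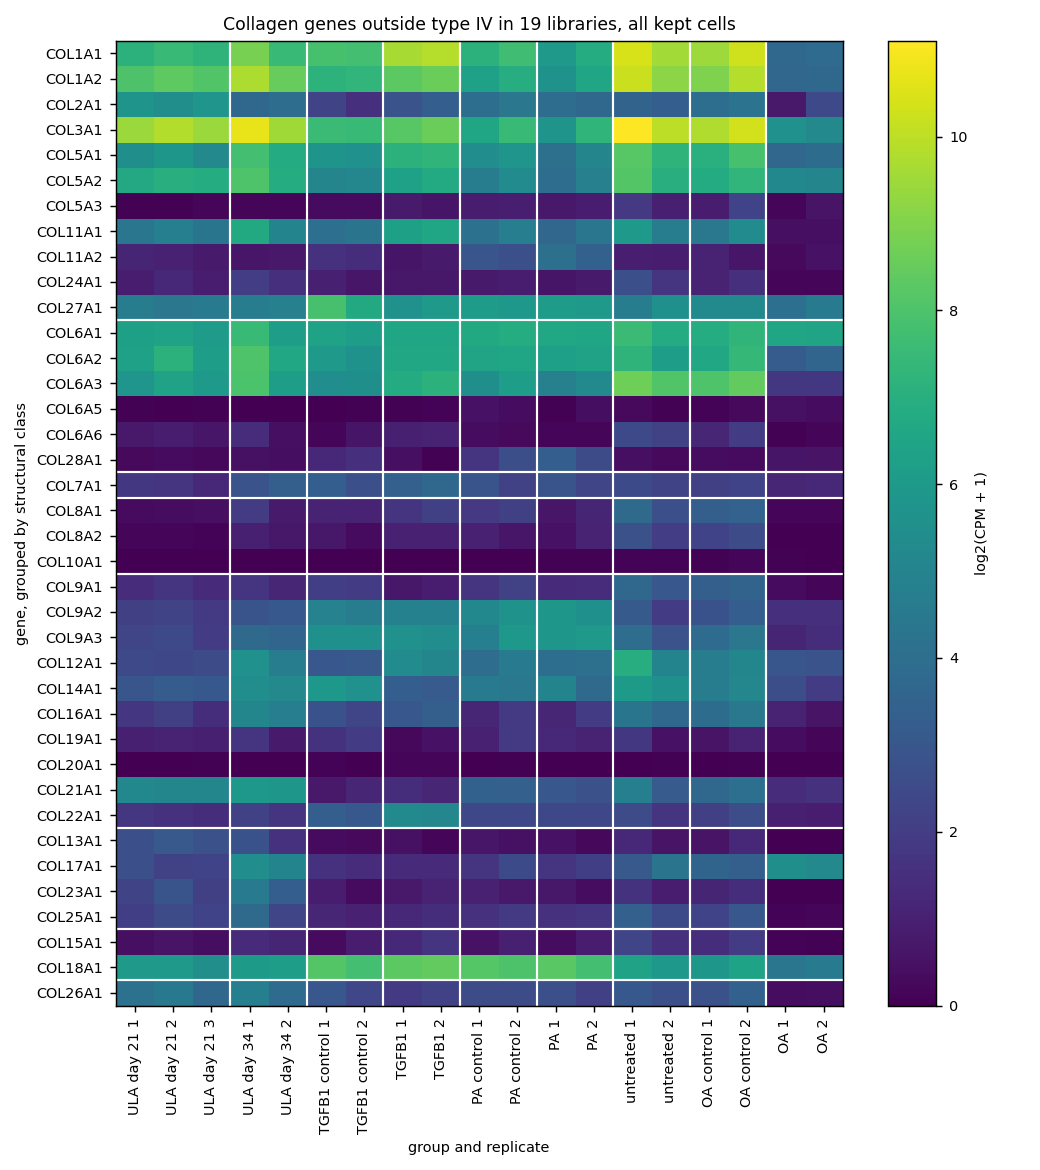
Level of each of the 38 collagen genes (rows, grouped by structural class) in each of the 19 libraries (columns, group and replicate), as log2(CPM + 1) in colour. Most genes are darker in the 2 OA columns than in the OA control columns, COL17A1 is brighter there, and COL1A1 is bright in TGFB1, untreated and OA control libraries.

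Promoter sequence is shown for 5 members that had a RefSeq entry. COL6A2 and COL8A2 were higher with TGFB1 and lower with OA, and COL28A1 was lower with TGFB1. COL7A1 and COL17A1 are epithelial anchoring genes. The TGFB1 calls of COL6A2, COL8A2 and COL28A1 did not hold in every fit with a library left out. Each run is the 250 bases before the annotated start, 5′ to 3′ on the gene's strand, from RefSeq on GRCh38.p14. COL6A2 is at chr21:46097862-46098111 (plus strand), COL8A2 at chr1:36125223-36125472 (minus), COL28A1 at chr7:7535874-7536123 (minus), COL7A1 at chr3:48595330-48595579 (minus) and COL17A1 at chr10:104085881-104086130 (minus). Capitals mark exact matches on either strand to the SMAD box CAGAC (SMAD proteins are the transcription factors downstream of TGFB1 receptors), the CCAAT box CCAAT or the TATA box TATAAA; these motifs do not overlap in the runs shown.
COL6A2: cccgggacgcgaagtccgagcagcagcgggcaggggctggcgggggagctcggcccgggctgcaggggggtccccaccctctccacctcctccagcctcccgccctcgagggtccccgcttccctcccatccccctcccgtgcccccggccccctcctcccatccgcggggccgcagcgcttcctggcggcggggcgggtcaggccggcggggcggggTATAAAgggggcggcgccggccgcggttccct
COL8A2: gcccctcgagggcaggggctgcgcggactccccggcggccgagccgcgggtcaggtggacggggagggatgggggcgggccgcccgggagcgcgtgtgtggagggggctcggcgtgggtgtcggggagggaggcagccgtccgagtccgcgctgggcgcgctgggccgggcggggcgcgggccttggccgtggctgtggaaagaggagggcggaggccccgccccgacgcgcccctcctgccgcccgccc
COL28A1: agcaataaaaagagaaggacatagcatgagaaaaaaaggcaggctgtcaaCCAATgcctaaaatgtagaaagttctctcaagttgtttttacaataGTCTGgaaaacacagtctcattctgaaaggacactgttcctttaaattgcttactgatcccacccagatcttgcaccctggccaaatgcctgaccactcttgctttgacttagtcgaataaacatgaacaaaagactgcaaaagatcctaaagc
COL7A1: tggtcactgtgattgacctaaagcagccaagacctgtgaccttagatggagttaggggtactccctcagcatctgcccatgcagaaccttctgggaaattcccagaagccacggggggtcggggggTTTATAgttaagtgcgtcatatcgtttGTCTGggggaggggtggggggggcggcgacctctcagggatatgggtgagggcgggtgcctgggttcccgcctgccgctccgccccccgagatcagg
COL17A1: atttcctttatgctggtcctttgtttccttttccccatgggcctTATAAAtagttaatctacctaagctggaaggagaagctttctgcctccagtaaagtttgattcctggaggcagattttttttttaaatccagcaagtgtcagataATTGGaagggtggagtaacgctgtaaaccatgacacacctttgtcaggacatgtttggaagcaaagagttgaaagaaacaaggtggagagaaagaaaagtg

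RefSeq entries matched 26 of the 38 members, with 37 promoters. COL1A1, COL1A2, COL3A1, COL14A1 and COL22A1 were among those without an entry, so the shares below leave them out. In windows of 300 bases (250 before the start and 50 after it), CAGAC was present on either strand in 14 of the 37 member promoters and in 45.3% of all 35116 promoters of the table. CCAAT was present in 10 of 37 against 34.6%, and TATAAA in 8 of 37 against 11.5%. COL6A2 has a TATA box match 32 bases before the start. COL28A1 and COL7A1 have a SMAD box match on the opposite strand, 154 and 97 bases before the start, and COL8A2 has none of the 3 motifs. Matches describe letters and not binding.

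With TGFB1, called members were mostly higher in whole libraries. Of 36 members tested, 19 passed an adjusted p of 0.05 (edgeR quasi-likelihood test, Benjamini-Hochberg over all genes), 13 higher and 6 lower. Of all 19366 genes tested, 10.8% were called higher and 11.3% lower. The share of members called lower was thus nearer that of all genes than the share called higher. The median log2 change was 1.00 for the members and −0.05 for all genes. Among fibrillar genes 6 of 11 rose (COL1A1, COL1A2, COL2A1, COL5A1, COL5A2 and COL11A1) and 2 fell (COL11A2 and COL27A1). COL1A1 (chromosome 17, 50184101 to 50201632 in GRCh38) had 798 and 946 CPM with TGFB1 against 234 and 217 CPM in controls. The groups did not overlap (log2 2.15 ± 0.34, edgeR adjusted p = 0.000713; errors are SE). COL11A1, a fibrillar chain known from cartilage, had 79.5 and 90.9 CPM against 15.7 and 18.3 CPM. Both TGFB1 libraries were far above both controls (log2 2.51 ± 0.38, edgeR adjusted p = 0.000536). COL1A2, the partner chain of COL1A1, had 314 and 391 CPM against 142 and 156 CPM (log2 1.43 ± 0.36, edgeR adjusted p = 0.0137), a call that was lost without TGFB1 control replicate 1 and also without TGFB1 replicate 2. COL3A1 had 296 and 393 CPM against 191 and 180.2 CPM. These groups did not overlap either, but the change did not pass (log2 1.09 ± 0.45, edgeR adjusted p = 0.101).

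The fibril-associated collagens split in direction. COL12A1, which coats type I fibrils in tissue under tension, had 40.2 and 33.2 CPM with TGFB1 against 7.08 and 7.54 CPM. COL22A1, known from tissue junctions, had 38.8 and 34.8 CPM against 8.85 and 7.38 CPM. For both genes the TGFB1 libraries lay far above the controls, with log2 changes of 2.51 ± 0.43 (edgeR adjusted p = 0.00113) and 2.39 ± 0.28 (adjusted p = 6.32e-05). COL14A1, which also binds fibril surfaces, had 8.99 and 8.19 CPM against 59.2 and 48.2 CPM and so moved the other way (log2 −2.44 ± 0.36, edgeR adjusted p = 0.000411). COL9A1, a chain of the type IX collagen of cartilage, had 0.659 and 0.816 CPM against 3.22 and 2.91 CPM (log2 −1.86 ± 0.34, edgeR adjusted p = 0.00187). COL19A1, which lies 3572 bases from COL9A1 on chromosome 6, had 0.182 and 0.459 CPM against 2.09 and 2.96 CPM (log2 −2.83 ± 0.71, edgeR adjusted p = 0.0131). Both neighbours were lower in each TGFB1 library, and the call of COL19A1 was lost when control replicate 2 or TGFB1 replicate 1 was left out. COL9A2 and COL9A3, the other chains of type IX, had log2 changes of 0.30 ± 0.30 and 0.15 ± 0.35 and were not called.

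In the remaining classes, COL6A2 and COL6A3 of the microfibrillar type VI were higher with TGFB1, as were both tested network genes, COL8A1 and COL8A2, and the multiplexin COL15A1. COL6A3 had 112 and 138 CPM against 42.8 and 45.1 CPM (log2 1.70 ± 0.25, edgeR adjusted p = 0.00039). COL6A1 had 90.4 and 91.2 CPM against 82.6 and 71.8 CPM and was not called (log2 0.44 ± 0.20, edgeR adjusted p = 0.142). COL28A1, a von Willebrand A collagen of peripheral nerve, had 19 UMIs with TGFB1 (17 and 2 per library) and 120 in controls. Its level was lower by 7.72-fold (exact 95% counting interval 4.73 to 13.3). The interval covers counting error only and not the spread between libraries. The fitted log2 change of COL28A1 was −2.70 and moved to −4.77 without TGFB1 replicate 1 and −1.91 without TGFB1 replicate 2. COL27A1, a fibrillar collagen of cartilage, had 47.6 and 61.7 CPM against 236 and 106 CPM, and its log2 change of −1.41 ranged from −1.80 to −0.87 with 1 library left out; the call was lost when either control replicate 1 or TGFB1 replicate 1 was. None of the 4 transmembrane genes was called (edgeR).

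Of the 19 calls, 9 held whichever of the 4 libraries was left out: COL1A1, COL5A1, COL5A2, COL6A3, COL9A1, COL11A1, COL12A1, COL14A1 and COL22A1. The count of called members was 11 and 14 when control replicate 1 or 2 was left out, and 12 and 11 when TGFB1 replicate 1 or 2 was. Marker lists moved with this result. Of 9 mesenchymal markers 4 were called higher, and their sum was 164 to 214 CPM against 84.9 to 85.6 CPM in controls. Smooth muscle markers summed to 12.98 to 16.7 CPM against 4.995 to 6.92 CPM, and cartilage markers to 8.39 to 9.58 CPM against 3.02 to 4.36 CPM. Stellate markers summed to 13.6 to 17.3 CPM against 41.1 to 95.98 CPM (1 of 6 called lower), and basal squamous markers to 140.00 to 145 CPM against 52.4 to 65.8 CPM (2 of 6 higher). LAMB3 made up most of the basal squamous sum, with 128 and 122 CPM against 53.9 and 41.9 CPM. TP63 had 11.1 and 11.9 CPM against 0.316 and 0.363 CPM. KRT15 was lower, with 4.22 and 5.10 CPM against 11.0 and 8.38 CPM, and KRT5 overlapped the controls. Neural markers summed to 72.9 to 94.02 CPM against 22.9 to 35.8 CPM (1 of 5 higher, 1 lower), and hepatocyte markers to 4512 to 5357 CPM against 2587 to 3913 CPM, though 5 of 8 were called lower and 1 higher. The part of these cells in the result was not tested. In sums over whole libraries, fewer cells of a type and less RNA per cell cannot be told apart. Of 36 genes for collagen processing and binding, 23 were called higher with TGFB1 and 0 lower by edgeR, including 8 of 12 for hydroxylation and modification and 6 of 8 receptor and uptake genes; of all genes 10.8% were called higher and 11.3% lower. P4HA3, a prolyl hydroxylase subunit, rose by 2.96 on the log2 scale, ITGA2, a collagen receptor subunit, by 2.52, LOXL2, a crosslinking oxidase, by 2.15, and ADAMTS14, a propeptide protease, by 2.05.

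**Figure D2:**
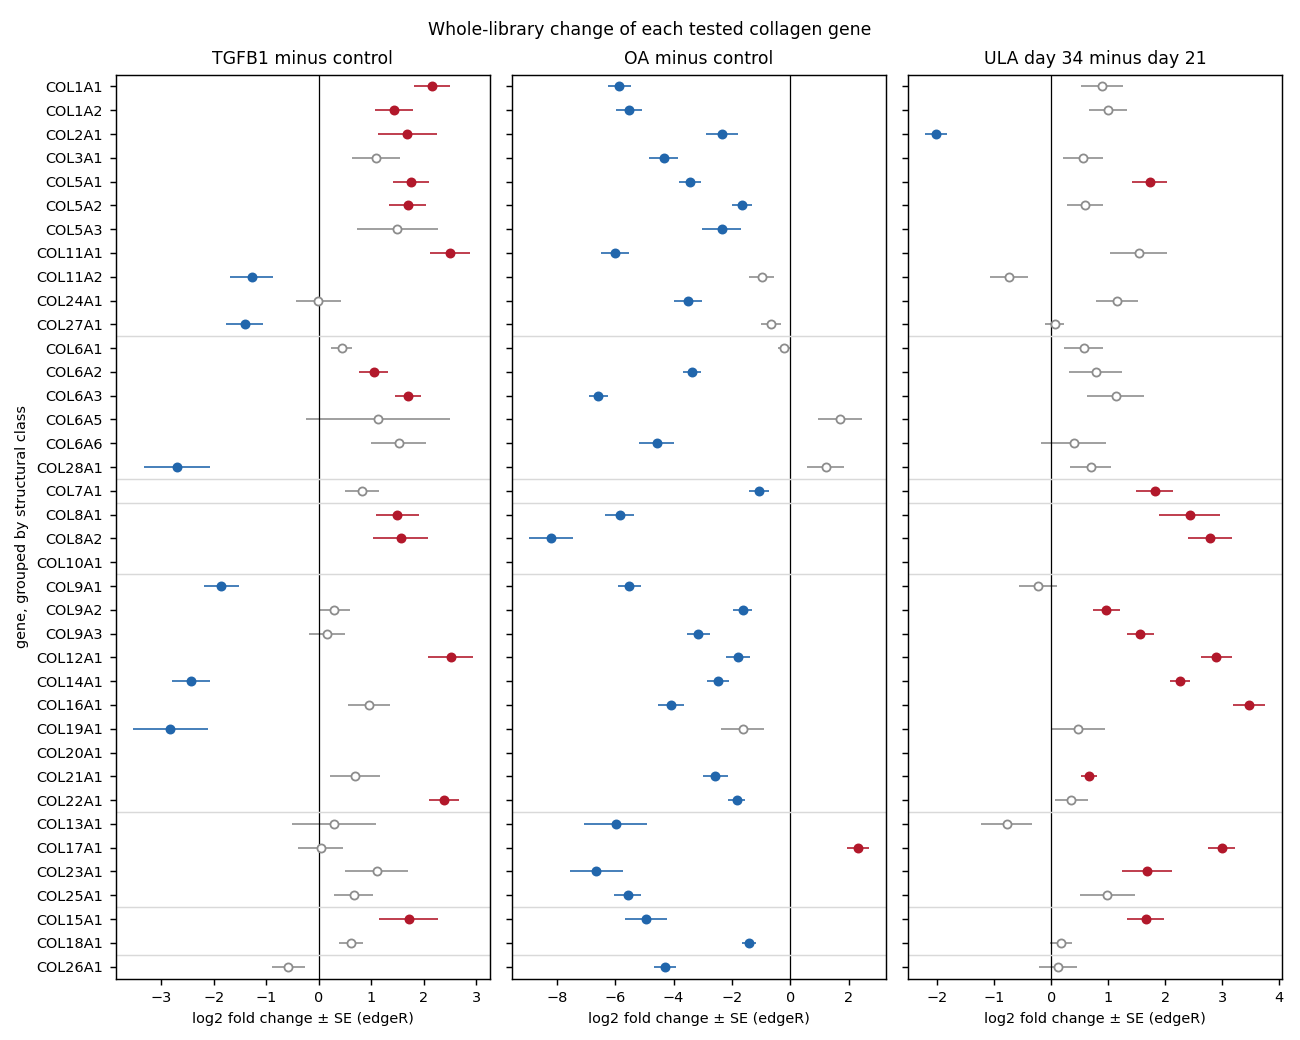
Log2 fold change ± SE (edgeR, x axes of different range) of each tested collagen gene in whole libraries, for TGFB1 against its control, OA against its control and ULA day 34 against day 21. Filled red points were called higher, filled blue points lower and open points not called; TGFB1 gives 13 red and 6 blue points and OA 1 red and 29 blue, of which COL8A2, COL13A1 and COL23A1 rest on 1 UMI each in the OA group.

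Within EPCAM-positive cells 19 of 36 members were called with TGFB1, 12 higher and 7 lower, against 11.1% of all genes higher and 11.1% lower. COL1A1 had 556 and 566 CPM with TGFB1 against 79.3 and 61.3 CPM in control EPCAM-positive cells. The groups were far apart (log2 3.21 ± 0.44, edgeR adjusted p = 0.000227). COL12A1 had 36.04 and 25.6 CPM against 4.34 and 4.23 CPM (log2 3.03 ± 0.52, edgeR adjusted p = 0.0012). COL22A1 had 41.2 and 37.3 CPM against 7.94 and 7.05 CPM, and with TGFB1 it stood above the 15.1 and 15.3 CPM of EPCAM-negative cells. COL14A1 had 6.31 and 4.73 CPM against 58.8 and 47.8 CPM (log2 −3.06 ± 0.40, edgeR adjusted p = 0.000148), lower in both TGFB1 libraries. COL1A2 was called with log2 1.84 ± 0.50 (edgeR adjusted p = 0.0193), a call lost whichever of the 4 libraries was left out. COL3A1 had 109 and 108 CPM against 54.4 and 42.2 CPM and was not called (log2 1.38 ± 0.58, edgeR adjusted p = 0.106). Leaving out control replicate 1 or 2 gave 11 or 13 called members, and leaving out TGFB1 replicate 1 or 2 gave 10 or 13. COL1A1, COL12A1, COL14A1 and COL22A1 were called in each of these fits.

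EPCAM-positive cells held 63.4% (62.9 to 63.95%) and 52.98% (52.5 to 53.5%) of all COL1A1 UMIs with TGFB1, against 20.2% (18.96 to 21.6%) and 26.6% (25.8 to 27.4%) in controls; the ranges are exact 95% binomial intervals and cover counting error only. They made up 50.7 and 91.2% of control cells and 84.1 and 86.3% of TGFB1 cells. In them 3 of 9 mesenchymal markers were called higher, with a sum of 63.5 to 64.6 CPM against 23.997 to 26.8 CPM. In control EPCAM-positive cells COL1A1 stood at 17.1% and 2.26% of its level in EPCAM-negative cells and the mesenchymal marker sum at 15.5% and 2.26%. With TGFB1, COL1A1 stood at 16.9% and 14.7% and the marker sum at 5.47% and 4.62%. COL1A2 then stood at 5.58% and 4.56%, COL3A1 at 4.93% and 4.18% and COL6A3 at 4.84% and 3.56%, all near the marker sum, while COL5A1 (11.6% and 9.21%), COL11A1 (35.3% and 32.3%) and COL12A1 (43.7% and 28.02%) stood above it in both libraries, as COL1A1 did. These 3 chains also stood above the marker sum in both controls, COL5A1 at 20.1% and 2.92%, COL11A1 at 26.4% and 5.59% and COL12A1 at 38.9% and 6.99%. The part of RNA from other cells in these values was not tested.

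Within EPCAM-negative cells 0 of 35 members passed for TGFB1 (edgeR), where 0.0762% of all genes were called, and DESeq2 called 1, COL27A1. At an unadjusted p under 0.05 there were 7 members. The share of all genes at that threshold is not given, so this count is not read as a result. The controls differed from each other: COL1A1 had 463 and 2706 CPM in control replicates 1 and 2, against 3282 and 3861 CPM with TGFB1. Mesenchymal markers summed to 173 CPM in control replicate 1 and 1060.0 CPM in control replicate 2, and the median EPCAM-negative cell had 1107 and 2571 UMIs. Among the fits with 1 library left out, members were called only without control replicate 2. That fit kept control replicate 1, whose split hardly separated epithelial cells, so its calls are not read as a result about the members. The TGFB1 effect differed between the EPCAM classes for 2 of 35 members, against 2.2% of all genes. COL14A1 had 36.5 and 34.8 CPM against 59.98 and 54.97 CPM in EPCAM-negative cells, a smaller difference than in EPCAM-positive cells (difference of log2 changes 2.73 ± 0.36, edgeR adjusted p = 0.00471). COL19A1 also differed (4.36 ± 0.69, edgeR adjusted p = 0.00725). Without TGFB1 replicate 2 neither was called, without TGFB1 replicate 1 COL19A1 was lost, and the count was 3 or 9 when control replicate 1 or 2 was left out. For COL1A1 the difference was −1.21 ± 1.03 (edgeR adjusted p = 0.616).

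**Figure D3:**
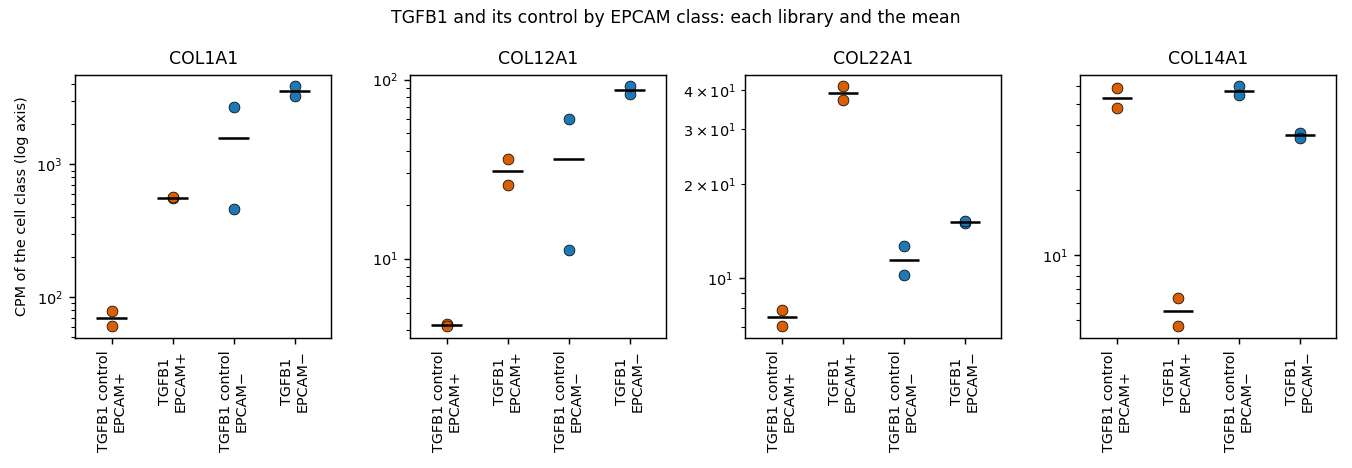
CPM (log axis, a range of its own in each panel) of COL1A1, COL12A1, COL22A1 and COL14A1 in EPCAM-positive (orange) and EPCAM-negative (blue) cells of TGFB1 and control libraries; points are libraries and bars the mean of 2. In EPCAM-positive cells the groups lie apart for all 4 genes, and in EPCAM-negative cells the COL1A1 values of the 2 controls lie far from each other.

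The summed collagen level was lowest with OA. Of 36 members tested, 29 were lower than in OA controls and 1 was higher (edgeR), while 21.6% of all genes were called lower and 21.7% higher. The median log2 change was −3.26 for the members and −0.08 for all genes. Among fibrillar genes 9 of 11 fell and among fibril-associated genes 8 of 9. COL1A1 had 12.6 and 13.9 CPM with OA against 709 and 1255 CPM in controls (log2 −5.86 ± 0.41, edgeR adjusted p = 1.06e-06). COL1A2 had 11.7 and 12.1 CPM against 489 and 922 CPM, and COL3A1 had 47.6 and 36.7 CPM against 875 and 1316 CPM. No OA library reached a control in these genes, and the log2 changes of the latter pair were −5.53 ± 0.43 and −4.35 ± 0.51. COL6A3, the large chain of type VI collagen, had 2.53 and 2.49 CPM against 266 and 343 CPM (log2 −6.58 ± 0.31, edgeR adjusted p = 2.44e-07). COL8A1, COL9A1, COL11A1, COL15A1, COL25A1 and COL6A6 had log2 changes between −6.00 (COL11A1) and −4.59 (COL6A6). COL8A2, a network collagen, had 469 UMIs in the 2 controls and 1 with OA, lower by 459-fold (exact 95% counting interval 82.1 to 18187). COL23A1 (160 against 1 UMI) and COL13A1 (102 against 1 UMI), both transmembrane, were lower by 157-fold (exact 95% counting interval 27.7 to 6229.8) and 99.9-fold (exact 95% counting interval 17.5 to 3985).

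Besides COL17A1, which rose, 6 members were not called lower with OA. COL17A1, the transmembrane collagen of the hemidesmosomes that anchor basal epithelial cells, had 44.6 and 36.9 CPM with OA against 11.1 and 9.41 CPM. No OA library overlapped a control (log2 2.32 ± 0.37, edgeR adjusted p = 0.000297). KRT5, a keratin of basal squamous cells, had a UMI in 146 and 21 OA cells. COL17A1 had 31.8 and 56.6 CPM in those cells and 45.2 and 36.8 CPM in the other OA cells. COL6A1 had 94.3 and 87.3 CPM against 115 and 151 CPM (log2 −0.21 ± 0.20, edgeR adjusted p = 0.436). COL6A5, another type VI chain, had 0.425 and 0.287 CPM against 0.0716 and 0.209 CPM, and COL28A1 had 0.536 and 0.478 CPM against 0.304 and 0.247 CPM; neither gene passed the test (edgeR adjusted p = 0.086 and adjusted p = 0.137), although the OA libraries were the higher ones for both. COL11A2 (−0.99 ± 0.43), COL19A1 (−1.63 ± 0.74) and COL27A1 (−0.67 ± 0.34) had negative changes that did not pass. COL6A2, which lies 93062 bases from COL6A1 on chromosome 21, had 8.43 and 11.4 CPM against 97.2 and 166 CPM (log2 −3.38 ± 0.30, edgeR adjusted p = 4.27e-06). COL3A1 and COL5A2, 19152 bases apart on chromosome 2, had log2 changes of −4.35 ± 0.51 and −1.65 ± 0.35. The differences between neighbours were not tested.

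Of the 30 calls with OA, 28 held whichever of the 4 libraries was left out. COL5A3 was lost when control replicate 2 or OA replicate 1 was left out, and COL7A1 in each of the 4 fits. COL2A1, the main collagen of cartilage, had 0.684 and 4.44 CPM with OA against 15.1 and 17.7 CPM, and its log2 change of −2.35 ranged from −4.22 to −1.56 with 1 library left out. The 9 mesenchymal markers were all called lower, with a sum of 42.3 to 62.1 CPM against 535 to 835 CPM, and TCF21 was at 0 in both OA libraries. LUM alone had 51.6 and 31.9 CPM with OA, most of the sum, against 170 and 255 CPM in controls. Stellate markers summed to 7.25 to 8.803 CPM against 43.4 to 75.1 CPM (5 of 6 called lower), smooth muscle markers to 1.09 to 1.19 CPM against 39.1 to 52.3 CPM (3 of 4 lower) and neural markers to 6.296 to 18.6 CPM against 37.8 to 44.4 CPM (1 of 5 lower). Blood and immune markers were higher, at 72.3 to 84.6 CPM against 10.9 to 15.9 CPM (2 of 2 tested called). Only 2 of the 5 markers in this list had a UMI in each OA library. With OA their sum was 72.9 to 85.5 CPM in EPCAM-positive cells and 6.29 to 20.7 CPM in EPCAM-negative cells. EPCAM-negative cells numbered 184 and 230 with OA and 2235 and 1389 in controls, and 6 of 8 hepatocyte markers were called higher. Within EPCAM-positive cells EPCAM itself had 1750 to 1953 CPM with OA against 782 to 817 CPM. The part of these shifts in the result was not tested. Of the 36 processing and binding genes, 22 fell and 7 rose, and all 6 for propeptide removal and all 5 for crosslinking were among those that fell. Of all genes 21.6% were called lower and 21.7% higher, so the share that rose was near that of all genes. ITGA11, a collagen receptor subunit of fibroblasts, fell by 6.36 on the log2 scale, MRC2, a collagen uptake receptor, fell by 5.73, PCOLCE, a protease enhancer, fell by 5.46 and DDR2, a receptor kinase for fibrillar collagen, fell by 5.32. SEC23A, part of the vesicle coat for export, rose by 1.36, PLOD2, a lysyl hydroxylase, by 1.17, ITGA2 by 1.17 and ITGB1, its partner subunit, by 0.81.

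Among EPCAM-positive cells, 24 of 36 members were lower with OA and 1 was higher (edgeR), against 18.0% of all genes lower and 19.1% higher. COL1A1 had 9.45 and 12.5 CPM with OA against 162 and 358 CPM (log2 −4.25 ± 0.47, edgeR adjusted p = 3.92e-05). COL1A2 had 8.05 and 8.68 CPM against 108 and 282 CPM, and COL3A1 had 36.2 and 27.8 CPM against 217 and 406 CPM. In each of these genes both OA libraries lay below both controls. In OA controls COL1A1 stood at 5.52% and 10.1% of its EPCAM-negative level, COL1A2 at 5.27% and 11.1% and COL3A1 at 6.10% and 11.2%. The mesenchymal marker sum stood at 4.99% and 8.51%, and the part of RNA from other cells was not tested. COL8A2 had 82 UMIs in the control cells and 0 with OA, at least 34.7-fold lower against a floor of 3 counts over the group. COL17A1 had 45.04 and 36.9 CPM against 13.4 and 12.8 CPM (log2 1.92 ± 0.34, edgeR adjusted p = 0.000927). COL5A2, COL12A1 and COL14A1, which fell in whole libraries, had log2 changes of −0.11 ± 0.35, −0.49 ± 0.48 and −0.61 ± 0.38 here and were not called. In the same cells 8 of 9 mesenchymal markers were called lower, with a sum of 36.6 to 56.9 CPM against 113 to 207 CPM. LUM alone had 50.6 and 30.1 CPM with OA, most of the sum, against 40.25 and 74.2 CPM in controls. The part of these markers was not tested. Of the 25 calls, 20 held with each library left out in turn.

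In EPCAM-negative cells 6 of 35 members passed for OA, 5 lower and 1 higher (edgeR; 3.31% of all genes lower and 5.48% higher). With any 1 of the 4 libraries left out, the count was 1, COL14A1. COL14A1 had 11.001 and 14.3 CPM with OA, which rest on 7 and 9 UMIs, against 102 and 101 CPM (log2 −3.16 ± 0.37, edgeR adjusted p = 0.0028). COL1A1 had 273 and 129 CPM against 2943 and 3535 CPM (log2 −4.18 ± 1.02, edgeR adjusted p = 0.033). For both genes the OA libraries lay below the controls. COL9A1 had 918 UMIs in the control cells and 0 with OA, at least 14.96-fold lower against a floor of 3 counts over the group. COL6A1 and COL26A1 were the others called lower, and COL17A1 was called higher, on 5 and 21 UMIs with OA. DESeq2, cells of at least 3000 UMIs and a replicate block each called more than these 6 members. The share of all genes called in those fits is not given, so this is not read as a result about the members. Mesenchymal markers summed to 492 to 512 CPM against 2260.3 to 2432 CPM in these cells, and hepatocyte markers to 5356 to 10404 CPM against 220.4 to 1131 CPM. Epithelial markers summed to 3763 to 4073.5 CPM against 1036 to 1076 CPM. Basal squamous markers summed to 116 to 1160 CPM against 69.99 to 86.1 CPM. KRT5 made up most of the larger sum, with 983.8 CPM in OA replicate 1. In OA replicate 2 it had 22.3 CPM, below the 64.2 and 78.005 CPM of the controls. DSG3, LAMB3 and TP63 were higher in both OA libraries than in both controls. The part of these markers was not tested. The OA effect differed between the classes for 4 of 35 members, against 6.95% of all genes, and none of the 4 held in every fit with a library left out. COL14A1 (−2.44 ± 0.49, edgeR adjusted p = 0.0157; not called without OA replicate 1) and COL6A1 (−2.15 ± 0.54) had the more negative change in EPCAM-negative cells. COL27A1 (1.94 ± 0.38) and COL9A3 (2.36 ± 0.59) had it in EPCAM-positive cells. COL9A3 had only 7 and 5 UMIs in the EPCAM-negative OA cells.

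PA gave no called member by edgeR. COL1A1 had 61.1 and 116 CPM with PA against 141 and 204 CPM in controls, COL1A2 had 51.6 and 94.7 CPM against 81.7 and 121 CPM, and COL3A1 had 52.5 and 153 CPM against 94.3 and 184 CPM. COL1A1 was lower in both PA libraries than in both controls (log2 −0.90 ± 0.33, edgeR adjusted p = 1), and the other genes overlapped. COL18A1 had 302 and 217 CPM against 284 and 256 CPM. Of 36 members, 0 passed the edgeR test (6 at an unadjusted p under 0.05) and DESeq2 called 0, where 0.0465% of all genes were called. In EPCAM-positive cells edgeR called 0 of 36 (2 at an unadjusted p under 0.05, DESeq2 0) and 0.0644% of all genes. In EPCAM-negative cells it called 0 of 35 (1 at an unadjusted p under 0.05, DESeq2 0) and 0.0% of all genes. For the difference between the classes it called 0 (1 at an unadjusted p under 0.05, DESeq2 0) and 0.0% of all genes. These shares of all genes are at the adjusted threshold. The share at an unadjusted p under 0.05 is not given, so the counts there are not read as results. The PA results by class rest on replicates 1 whose split was poor, and hepatocyte markers summed to 3502 to 14710 CPM in control and 7367 to 11966 CPM in PA EPCAM-negative cells. None of the 36 processing and binding genes was called by edgeR.

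OA controls were also set against untreated organoids, a comparison that shares the OA control libraries with that of OA. COL1A1 had 709 and 1255 CPM in OA controls and 1380.4 and 763 CPM in untreated organoids, COL1A2 had 489 and 922 CPM and 1196 and 570.4 CPM, and COL3A1 had 875 and 1316 CPM and 2199.6 and 1011 CPM. The groups overlapped for all 3 genes. Of 36 members 0 passed (edgeR, DESeq2 0), and 0.444% of all genes did by edgeR. At an unadjusted p under 0.05 there were 4 members. The share of all genes at that threshold is not given, so this count is not read as a result. Without untreated replicate 2, COL12A1 and COL24A1 were called, both lower in OA controls.

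In the untreated ULA cultures, called collagens were mostly higher at day 34 than at day 21. Of 34 members tested, 13 were higher at day 34 and 1 was lower (edgeR), against 8.54% of all genes higher and 7.27% lower. The median log2 change was 0.93 for the members and 0.01 for all genes. Of 9 fibril-associated genes 6 rose, and of 10 fibrillar genes 1 rose and 1 fell. COL16A1, a fibril-associated collagen, had 2.37, 3.29 and 1.72 CPM at day 21 and 33.6 and 26.02 CPM at day 34 (log2 3.47 ± 0.29, edgeR adjusted p = 0.00106). COL12A1 had 4.49, 4.35 and 4.76 CPM and 48.6 and 25.4 CPM (log2 2.90 ± 0.27, edgeR adjusted p = 0.00126). COL17A1 had 5.54, 3.53 and 3.64 CPM and 42.2 and 31.3 CPM (log2 2.99 ± 0.24, edgeR adjusted p = 0.000968). In these genes every day 34 library lay far above every day 21 library. COL14A1 had 6.82, 8.34 and 7.45 CPM and then 42.9 and 36.4 CPM (log2 2.26 ± 0.17, edgeR adjusted p = 0.000801). COL7A1, whose protein forms anchoring fibrils beneath stratified epithelium, had 2.49, 2.23 and 1.37 CPM and then 6.15 and 9.42 CPM, a call lost without day 21 replicate 3. COL2A1 was the gene that fell, from 52.2, 43.4 and 54.9 CPM to 12.1 and 14.8 CPM (log2 −2.03 ± 0.19, edgeR adjusted p = 0.0013).

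The major fibrillar chains did not pass in whole ULA libraries. COL1A1 had 141, 175 and 147 CPM at day 21 and 451 and 177 CPM at day 34 (log2 0.89 ± 0.36, edgeR adjusted p = 0.142). COL1A2 had 253, 321 and 269 CPM and 854 and 370.4 CPM (log2 0.99 ± 0.33, edgeR adjusted p = 0.0874), and COL3A1 had 699, 906 and 691 CPM and 1724 and 743 CPM (log2 0.55 ± 0.34, edgeR adjusted p = 0.309). Day 34 replicate 1 was far above the day 21 libraries for these 3 genes and replicate 2 was nearer to them. The count of called members was 8 without day 21 replicate 1 and 7 without day 21 replicate 3. It rose without day 34 replicate 2, a fit with 1 day 34 library. The share of all genes called is not given for these fits, so the counts are not read as results about the members. COL2A1, COL8A2, COL9A3, COL12A1, COL14A1, COL16A1 and COL17A1 were called each time.

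All 6 basal squamous markers were called higher at day 34 (316 to 929 CPM in sum against 12.97 to 20.4 CPM), as were 3 of 9 mesenchymal markers (684 to 1549.8 CPM against 986 to 1262 CPM). Hepatocyte markers summed to 81.5 to 747 CPM at day 34 against 1949 to 2188 CPM (2 of 8 called lower), and smooth muscle markers to 39.6 to 53.1 CPM against 13.5 to 22.1 CPM (1 of 4 higher). Cells with a UMI of KRT5, a keratin of basal squamous cells, numbered 1493 and 7635 at day 34 and 100, 35 and 87 at day 21. At day 34 COL17A1 had 90.5 and 43.7 CPM in those cells and 11.3 and 5.102 CPM in the others, against 5.299, 3.22 and 3.43 CPM in the day 21 cells without a KRT5 UMI. COL7A1 had 9.73 and 11.96 CPM in the day 34 cells with KRT5 and 3.86 and 4.08 CPM in those without. Both genes were thus higher in the cells with KRT5 in both day 34 libraries. The part of these cells and markers in the changes was not tested, and the longer trypsin step cannot be told apart from the day. Of the 36 processing and binding genes, 7 rose and 2 fell, where 8.54% of all genes were called higher and 7.27% lower, so the share that fell was near that of all genes. P4HA3 rose by 2.65 on the log2 scale, LOXL4 (crosslinking) by 1.42, ITGA2 by 1.15 and P4HA2 by 1.10, ITGA1 fell by 0.83 and SEC23A fell by 0.67.

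By EPCAM class, 16 of 34 members were called in EPCAM-positive ULA cells, 15 higher and 1 lower (10.9% of all genes higher, 9.52% lower). In EPCAM-negative cells 14 of 33 were called, 12 higher and 2 lower (9.69% and 7.23%). Markers moved within the classes too. In EPCAM-positive cells basal squamous markers summed to 536 to 1061 CPM at day 34 against 22.3 to 26.8 CPM, and hepatocyte markers to 135 to 913 CPM against 2889 to 3418 CPM. In EPCAM-negative cells basal squamous markers summed to 40.7 to 515 CPM against 0.924 to 1.405 CPM. Epithelial markers there summed to 752 and 2869.8 CPM at day 34 and 829.6 to 943 CPM at day 21, so the split was less clean in day 34 replicate 2. Their part in the results by class was not tested. COL1A1 and COL1A2 were called in EPCAM-positive cells, with log2 changes of 1.33 ± 0.33 (edgeR adjusted p = 0.0301) and 1.41 ± 0.36 (adjusted p = 0.0324), and both calls were lost whichever of the 3 day 21 libraries was left out. COL12A1 in EPCAM-negative cells had 1.201, 1.08 and 1.81 CPM at day 21 and 59.9 and 57.6 CPM at day 34 (log2 5.30 ± 0.23, edgeR adjusted p = 5.04e-05). In EPCAM-positive cells it had 5.55, 6.88 and 5.84 CPM and then 39.6 and 15.2 CPM. At day 21 COL12A1 was higher in the EPCAM-positive cells of each library, and at day 34 in the EPCAM-negative cells of each. The change differed between the classes (3.42 ± 0.52, edgeR adjusted p = 0.0202), a call that was also lost without each of them. In all, 11 of 34 members differed between the classes, against 10.9% of all genes. COL16A1 (−1.70 ± 0.19), COL11A1 (−1.59 ± 0.18) and COL3A1 (−1.22 ± 0.14) had the more positive change in EPCAM-positive cells and COL27A1 (1.06 ± 0.13) in EPCAM-negative cells, and these 4 were called whichever library was left out. Without day 34 replicate 2, which left 1 day 34 library, the counts of called members rose in both classes and for the difference. The share of all genes called in that fit is not given. In EPCAM-positive cells 7, 10 and 7 were called without day 21 replicate 1, 2 or 3.

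**Figure D4:**
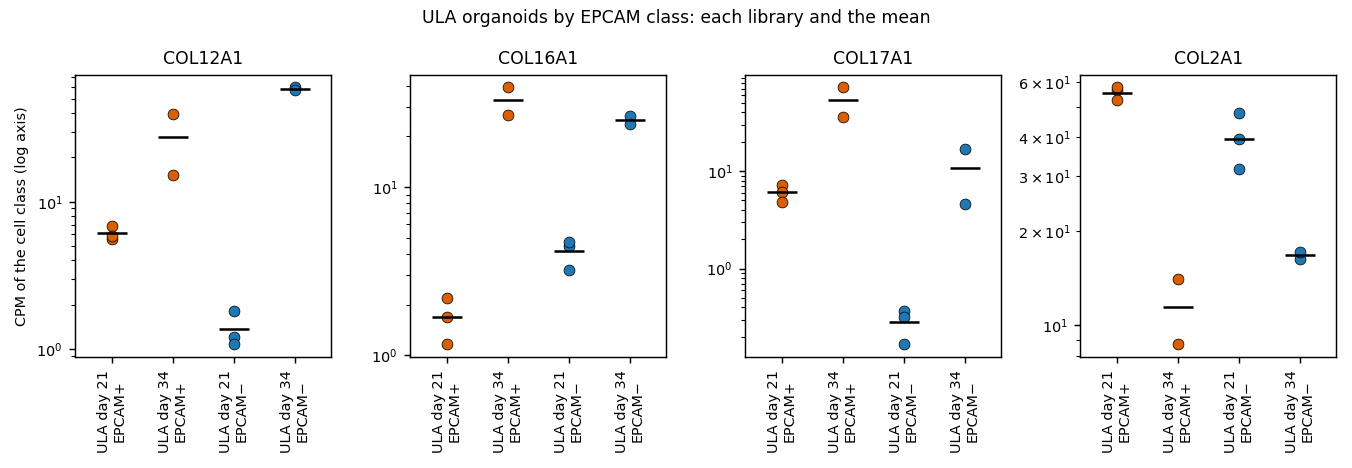
CPM (log axis, a range of its own in each panel) of COL12A1, COL16A1, COL17A1 and COL2A1 in EPCAM-positive (orange) and EPCAM-negative (blue) cells of ULA organoids; points are libraries (3 at day 21, 2 at day 34) and bars the mean. COL12A1 in EPCAM-negative cells shows the widest gap between the days among the 4 genes, and COL2A1 is lower at day 34 in both classes.

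Across groups, most collagens were higher in EPCAM-negative cells. In OS organoids 26 of 35 members differed between the classes (edgeR, library as block), 25 higher in EPCAM-negative cells and 1 lower. Of all genes, 23.9% were higher and 30.3% lower there, and 8 of 9 mesenchymal markers were higher. COL1A1 ranged over the 14 OS libraries from 9.45 to 566 CPM (median 78.2) in EPCAM-positive cells and from 129 to 3861 CPM (median 2058) in EPCAM-negative cells. It was higher in the latter in 14 of 14 libraries (log2 3.46 ± 0.29, edgeR adjusted p = 6.27e-06). COL1A2 differed by 3.96 ± 0.25 and COL3A1 by 3.86 ± 0.25, also in 14 of 14 libraries. COL6A3 had a median of 14.5 CPM in EPCAM-positive and 608 CPM in EPCAM-negative cells (log2 4.72 ± 0.26, edgeR adjusted p = 6.32e-07). COL17A1 was the exception, with a median of 4.096 CPM and 1.43 CPM, and was higher in EPCAM-negative cells in 1 of 14 libraries (log2 −2.72 ± 0.36, edgeR adjusted p = 0.000115). COL18A1 (−0.03 ± 0.08), COL27A1 (−0.18 ± 0.09) and COL2A1 (−0.34 ± 0.16) were among those not called. For each of these genes the mean covers groups of opposite sign. COL18A1 differed by −0.45 ± 0.19 with TGFB1 and 0.32 ± 0.20 in untreated organoids. COL2A1 differed by −2.15 ± 0.27 in OA controls and 0.90 ± 0.38 in TGFB1 controls, and COL27A1 by −0.78 ± 0.23 in OA controls and 1.17 ± 0.30 with OA. For COL9A1, counted among the 35 and not called, the mean difference over the groups had too large an SE to be of use and is not given. It had 0 UMIs in the EPCAM-negative cells of both OA libraries, as had COL28A1. Its fitted difference was 4.21 ± 0.49 in OA controls and 3.36 ± 0.48 in untreated organoids. Of the 26 calls, 19 held in every fit with a library left out.

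In ULA organoids 26 of 34 members differed between the classes, 19 higher and 7 lower in EPCAM-negative cells, where 25.4% of all genes were higher and 30.7% lower (edgeR), and 24 calls held with each library left out. The log2 differences of the major fibrillar chains were 1.68 ± 0.06 for COL1A1, 1.39 ± 0.12 for COL1A2 and 1.06 ± 0.07 for COL3A1. COL3A1 had 401 to 1485 CPM in EPCAM-positive and 1032 to 2022 CPM in EPCAM-negative cells of the 5 libraries, and the mesenchymal markers summed to 435 to 887 CPM in the former. COL17A1 (−3.56 ± 0.65), COL18A1 (−1.40 ± 0.14), COL21A1 (−1.10 ± 0.08), COL27A1 (−0.85 ± 0.07) and COL7A1 (−0.71 ± 0.12) were among the genes lower in EPCAM-negative cells. COL21A1, a fibril-associated collagen, was higher in EPCAM-negative cells in 0 of 5 ULA libraries and in 13 of 14 OS libraries (log2 3.32 ± 0.47, edgeR adjusted p = 0.000139). The 2 cultures were fitted apart, and the difference between them was not tested.

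**Figure D5:**
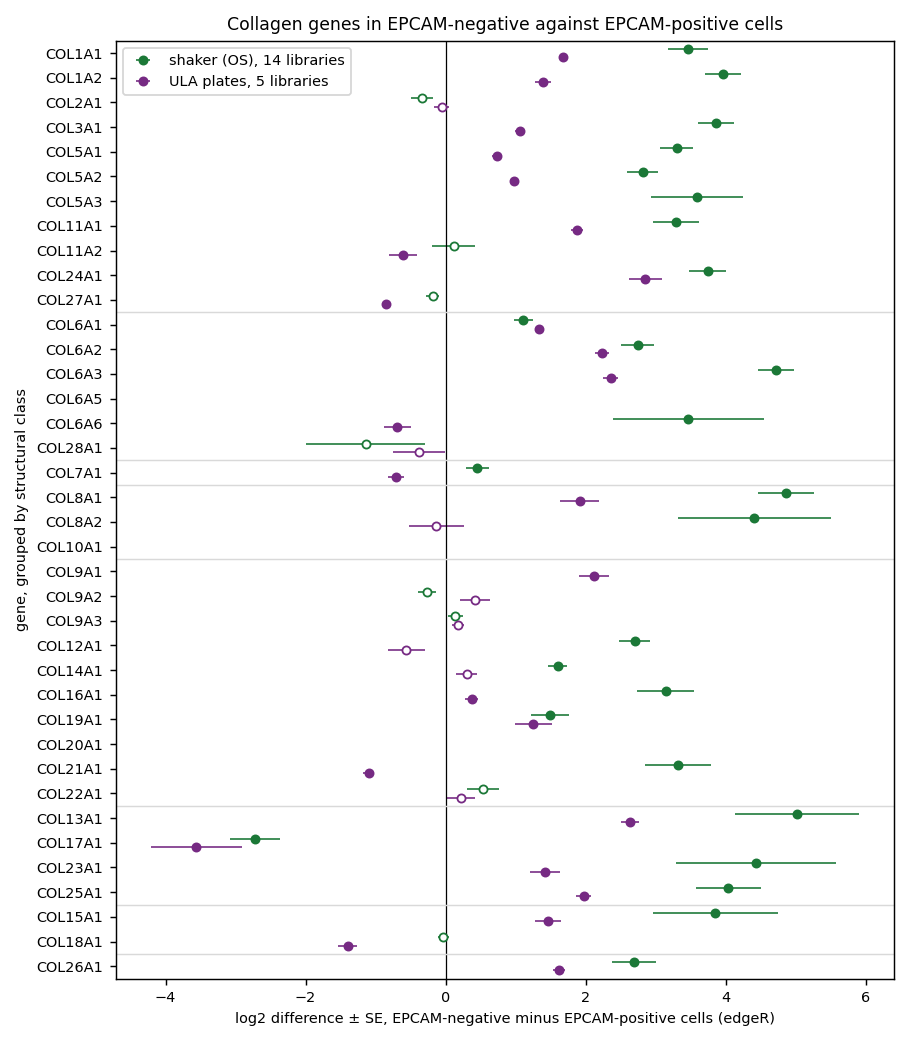
Log2 difference ± SE (edgeR) between EPCAM-negative and EPCAM-positive cells for each tested collagen gene, in shaker (green, 14 libraries) and ULA (purple, 5 libraries) organoids; filled points were called and open points not, and COL9A1 has no OS point. Most filled points lie to the right of 0, while COL17A1 lies to the left in both cultures, at −2.72 and −3.56.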

How the data were processed

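Droplet single-cell libraries (3′ chemistry of 10x Genomics, per the labels' protocols) were made from 19 samples in 9 groups, which were read from the sample titles. The deposited matrices hold raw UMI counts per gene and barcode, not normalized. Per the file headers the software version was 6.0.2 for 6 libraries (OA, OA control, untreated) and 3.0.2 for 13; the submitters' processing notes name Cell Ranger 3.0.2, Scanpy, bcl2fastq and GRCh38. Matrices list 58721 genes (ULA), 33538 (TGFB1 and PA sets) or 36601 (OA set and untreated).

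A barcode was kept as a cell if it had 500 or more genes and no more than 20% mitochondrial UMIs. No doublets were removed; removing the highest Scrublet scores (0.8% per 1000 barcodes; scanpy 1.11.5, Python 3.11.15) was an alternative. UMIs were summed per library, or per library and EPCAM class, and tested with edgeR 4.0.16 in R 4.3.3 (TMM, filterByExpr by group, robust quasi-likelihood F test, Benjamini-Hochberg over all genes tested, threshold 0.05). The 14 OS libraries were fitted together over 32732 shared gene identifiers, and the 5 ULA libraries over their own genes. In the models with both EPCAM classes the library was a block with 1 class effect per group. SE is the absolute log2 change divided by the square root of F. For genes with 0 or 1 UMI in a group, and for COL28A1 with TGFB1, ratios of summed counts or bounds against 3 counts are given. Alternatives were DESeq2 1.42.0, a filter of 10 counts in total, stricter cells (1000 genes, 10% mitochondrial), cells of at least 3000 UMIs, EPCAM-positive at 2 UMIs, fits of the compared groups alone, a replicate block, and leaving out each library. Only the edgeR fits were tested on simulated counts, which had the same spread for every gene. The cell filter, the EPCAM split, the doublet scores and the count ratios were not tested in this way. Gene positions come from GENCODE on GRCh38 and promoters from RefSeq on GRCh38.p14.

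Named in each comparison were COL1A1, COL1A2 and COL3A1, called members (at most 12 by absolute log2 change), the 2 members with the most UMIs in a group, and at most 4 processing genes in each direction; other members named were chosen after their values were seen. The members and lists were chosen with earlier results of these data known. No label pairs the replicate numbers of different groups.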

Additional observations from a re-analysis of the deposited data

Results flagged for a closer look

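The effect of a condition differed between EPCAM-negative and EPCAM-positive cells, by a test of the difference itself (edgeR, negative minus positive, log2 scale), for 17 pairs of gene and comparison. These were 2 of 35 members tested for TGFB1, where 2.2% of all genes were called, 4 of 35 for OA (6.95%) and 11 of 34 for ULA (10.9%). For TGFB1 these were COL14A1 (2.73) and COL19A1 (4.36), with the less negative change in EPCAM-negative cells. For OA, COL14A1 (−2.44) and COL6A1 (−2.15) had the more negative change in EPCAM-negative cells, and COL27A1 (1.94) and COL9A3 (2.36) in EPCAM-positive cells. COL14A1 thus had differences of opposite sign with TGFB1 and with OA, but neither call held in every fit with a library left out. The OA difference rests on 7 and 9 UMIs in EPCAM-negative OA cells. The controls also started apart: in EPCAM-positive cells COL14A1 had 58.8 and 47.8 CPM in TGFB1 controls and 6.71 and 8.67 CPM in OA controls.

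For ULA day 34 against day 21 the fibrillar genes COL11A1 (−1.59), COL3A1 (−1.22), COL5A1 (−0.98) and COL1A1 (−0.81), and with them COL16A1 (−1.70), COL6A2 (−1.22) and COL7A1 (−1.16), had the more positive change in EPCAM-positive cells. COL12A1 (3.42), COL2A1 (1.09), COL27A1 (1.06) and COL26A1 (0.99) had it in EPCAM-negative cells. COL2A1 was lower at day 34 in both classes, with log2 changes of −2.41 in EPCAM-positive and −1.37 in EPCAM-negative cells. Of the 17 differences, COL3A1, COL11A1, COL16A1 and COL27A1 in the ULA cultures were called whichever library was left out.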

How the results depend on the processing

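In each comparison the 12 called members with the largest log2 changes, and COL1A1, COL1A2 and COL3A1 where called, were recomputed one by one. None reversed sign in the alternatives run: 1387 values kept the call and 163 lost it. The other members, called or not, enter the counts alone. With likely doublets removed, 16 members were called for TGFB1 in whole libraries. With 1 library left out, the counts of called members in whole libraries were 11 to 14 for TGFB1 (19 with all libraries), 0 to 0 for PA, 28 to 30 for OA, 0 to 2 for OA controls against untreated, and 7 to 26 for ULA. In EPCAM-positive cells they were 10 to 13 for TGFB1, 0 to 0 for PA, 20 to 23 for OA and 7 to 25 for ULA. In EPCAM-negative cells they were 0 to 17 for TGFB1, 0 to 0 for PA, 1 to 1 for OA (6 with all libraries) and 10 to 26 for ULA. Between the classes they were 21 to 29 for OS and 24 to 30 for ULA, and for the difference of effects 0 to 9 for TGFB1, 0 to 0 for PA, 0 to 2 for OA and 4 to 21 for ULA. A group left with 1 library was assumed to vary like the others. The share of all genes called is not given for fits with a library left out, so these counts are not read as results about the members. DESeq2 called 1 member for TGFB1 and 14 for OA in EPCAM-negative cells, and 7 for the TGFB1 difference between classes. With cells of at least 3000 UMIs, OA in EPCAM-negative cells gave 15. For the DESeq2, doublet and 3000 UMI fits the share of all genes called is not given either. Their counts are thus not read as results about the members. The cause of these differences in count was not tested.

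Deviations from the group means correlated between same-numbered libraries at −0.522 (TGFB1), 0.156 (PA), 0.0577 (OA), −0.656 (OA control and untreated), −0.2501 and −0.323 (ULA), and the libraries share only a number. With the replicate number as a block, 20 members were called for TGFB1, 31 for OA and 0 for ULA (14 without the block) in whole libraries, 5 for ULA (16 without it) in EPCAM-positive cells, and 8 for ULA and 20 for OA in EPCAM-negative cells. With crossed numbers, an alternative chosen after seeing the data, 24 were called for TGFB1 and 4 for OA controls against untreated. The share of all genes called is not given for these block fits, so the counts are not read as results about the members.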
